A study of Homo sapiens with 6 samples.

Results

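The transforming growth factor beta (TGF-beta) ligand genes and a set of their direct target genes were followed in the established line A549, which was derived from a human lung adenocarcinoma. The members were the 9 rows of the deposited count table whose gene name was TGFB1, TGFB2, TGFB3, TGFBR2, SMAD7, CCN1, CCN2, THBS1 or TGFBI, out of 62710 genes, and all 9 passed the filter on low counts. Transcripts were measured by poly(A)-selected RNA-seq in 6 libraries. In 3 of them polystyrene microplastics (PS-MP) had been present for 48 h at a labelled 20 mg/mL, a unit that could not be checked, and the 3 control libraries came from untreated A549 cells. The comparison asks whether the particles change transcripts of the ligands, of the type II receptor and of the genes that TGF-beta is known to induce, with ligands set against targets.

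TGF-beta is secreted as a latent complex that must be activated outside the cell. The active dimer binds the type II receptor TGFBR2, which recruits and phosphorylates the type I receptor TGFBR1, and SMAD2 and SMAD3 then enter the nucleus with SMAD4 to change transcription. In epithelial cells the pathway is known for growth arrest, matrix production and epithelial-mesenchymal transition. Much of its regulation is at the level of protein activation and phosphorylation, which RNA counts do not measure.

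A single member changed by the test used, the two-sided quasi-likelihood F test of edgeR at an adjusted p of 0.05 (Benjamini-Hochberg, over all 15458 tested genes). TGFBI, a secreted matrix protein named for its induction by TGF-beta, rose 1.40-fold in PS-MP cells. In bulk RNA, more cells that express a gene and more transcript per cell cannot be told apart. None of the 3 ligands, the receptor, the inhibitor SMAD7 or the targets CCN1, CCN2 and THBS1 passed. The 1 of 9 members called is to be set beside 9.56% of all tested genes called, 4.91% higher and 4.65% lower. At an unadjusted p under 0.05 there were 2 members higher and 1 lower, beside 24.0% of all tested genes in either direction, and DESeq2 and limma-voom each called 1 member higher and 0 lower. The median log2 fold change (PS-MP over control) was 0.16 over the members and 0.00 over all tested genes. In 4 of the 9 members, TGFB1, CCN2, THBS1 and TGFBI, every PS-MP value lay on the same side of every control value, where 32.0% of all tested genes showed no overlap.

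**Figure D1:**
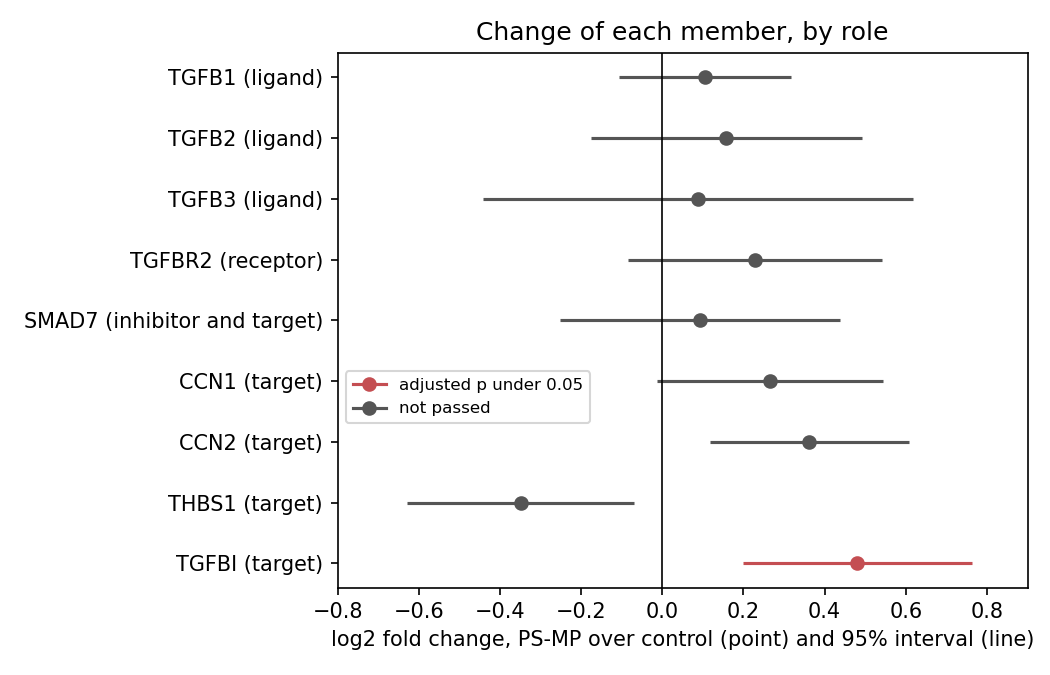
Points give the log2 fold change of each member (PS-MP over control) and lines its 95% interval from edgeR's fit, with members listed by role from the ligands at the top to the targets at the bottom. TGFBI (0.48, red) passed; the interval of CCN2 (0.36) also lies above 0 and that of THBS1 (-0.35) below 0, without passing.

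Library totals ran from 17541896 to 19119508 counts in the PS-MP group and from 17013293 to 21316451 in the controls, and 3 counts correspond to 0.137 to 0.177 counts per 1e6 counts (CPM), a floor for counting error only. Values below are CPM scaled by TMM (trimmed mean of M values, edgeR's scaling for library composition) unless stated otherwise. Nothing in the labels says whether the 3 libraries of a group are separate cultures, so the p-values cover only the spread seen between libraries, and that spread may be technical. Replicate 3 stood apart in both groups. Across tested genes its log2 CPM correlated at 0.984 and 0.981 with the other PS-MP libraries (0.992 between those) and at 0.984 and 0.985 with the other controls (0.994 between those). With both replicate 3 libraries removed, an alternative added once these correlations were known, the share of all genes called was 26.6%. The epithelial markers KRT7, KRT8, KRT18, KRT19, CDH1 and EPCAM summed to 7270 to 8400 CPM in the PS-MP libraries and 7040 to 7660 CPM in the controls, with EPCAM low at 2.18 and 2.47 CPM on average. The 5 endothelial markers summed to 0.695 to 1.01 CPM in PS-MP and 0.275 to 1.06 CPM in control libraries. The 5 leukocyte markers summed to 0.280 to 0.695 CPM in PS-MP and 0.321 to 0.366 CPM in control libraries, and the 4 platelet markers, of which PF4 and GP9 were at 0, to 0.637 to 1.01 CPM in PS-MP and 0.962 to 1.12 CPM in control libraries.

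Levels per length put the members in an order that was the same in both groups. Per kilobase of exon (GENCODE 29 exon unions), TGFBI averaged 105.2 ± 17.5 CPM per kb in PS-MP and 75.4 ± 5.20 in control libraries (SD, n = 3), followed by TGFBR2 with 61.5 ± 12.4 and 52.5 ± 5.01. TGFB1 came next (40.0 ± 0.230 in PS-MP, 37.2 ± 2.81 in controls), and then CCN2 (22.2 ± 1.32 and 17.3 ± 1.71) and CCN1 (16.8 ± 2.56 and 14.0 ± 0.529). TGFB2, THBS1, SMAD7 and TGFB3 lay below 7 CPM per kb in every library. Each member lay above the next in the order in every library of a group, so no neighbours in the order overlapped. Among all tested genes with a length, 97.8% lay below TGFBI in PS-MP cells and 97.0% in controls, against 15.7% and 14.9% below TGFB3.

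**Figure D2:**
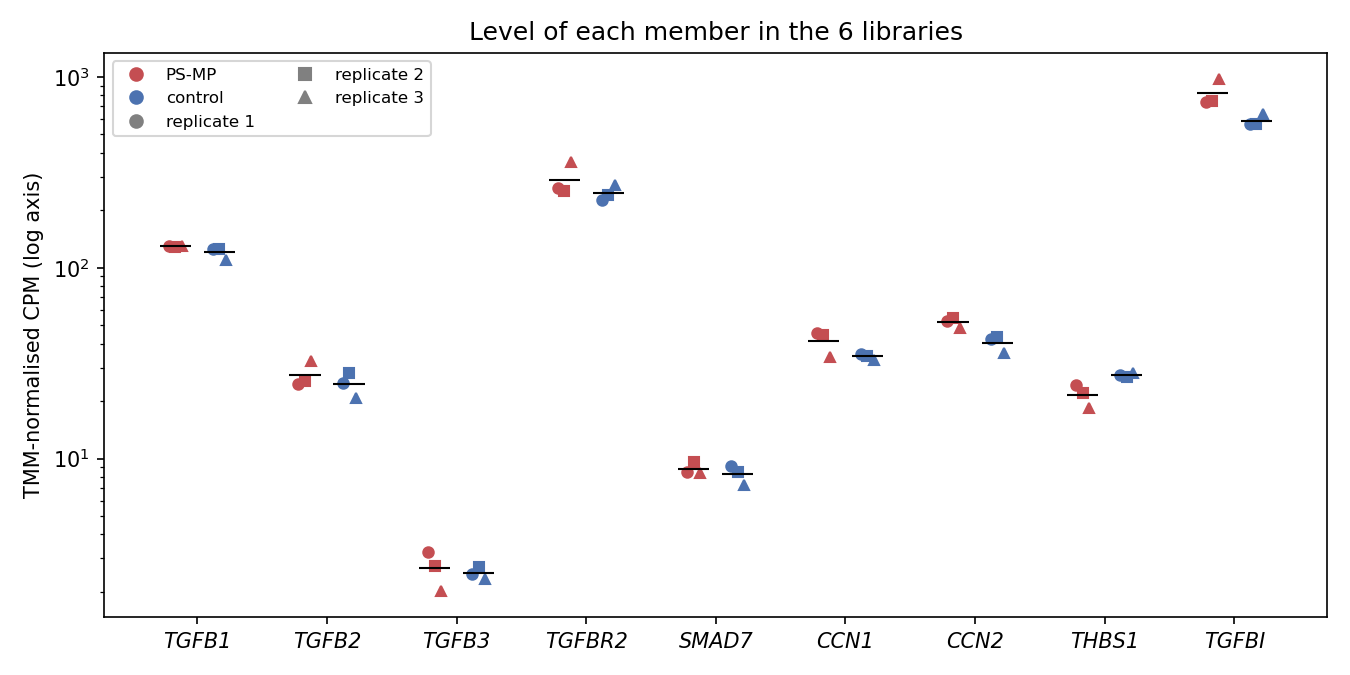
Each point is the TMM-normalised CPM of a member in a library on a log axis, with PS-MP in red left of control in blue, the replicate by symbol and the group mean as a bar. TGFB3 lies lowest (2.02 to 3.24 CPM) and TGFBI highest (563.7 to 979.2 CPM), and the distance between those members is far larger than that between groups of either.

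The ligand genes did not pass: 0 of 3 were called by edgeR, DESeq2 or limma-voom, and 0 had an unadjusted p under 0.05. TGFB1, which encodes the main TGF-beta isoform of most tissues, stands on chromosome 19 at chr19:41301587-41353922 (minus strand, GRCh38, as the deposited annotation gives all positions here). It had 129.4, 128.8 and 130.3 CPM in the PS-MP libraries, against 126.1, 125.2 and 109.9 CPM in the controls. All PS-MP libraries lay above all controls, but control replicate 3 alone was clearly lower. The fold change was 1.08 with a 95% interval from 0.928 to 1.25 (edgeR adjusted p = 0.548), so a rise above 1.25-fold lies outside the interval. The annotated span of TGFB1 overlaps HNRNPUL1, CCDC97 and TMEM91 on the opposite strand, and the strand setting of the counting is not stated, so reads there cannot be told apart with certainty. HNRNPUL1 had up to 9691 counts in a library and a log2 fold change of -0.35, and the lncRNA ENSG00000286177, on the same strand as TGFB1, had up to 135 counts.

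TGFB2 (chr1:218345336-218444619, plus strand), an isoform that needs the co-receptor TGFBR3 for high-affinity binding, had 24.5, 25.4 and 32.5 CPM in PS-MP libraries, against 25.0, 28.2 and 20.7 CPM in the controls. The groups overlapped, with the highest value in PS-MP replicate 3 and the lowest in control replicate 3. Its log2 fold change was 0.16 ± 0.15 SE (edgeR adjusted p = 0.565), and it turned to -0.10 without both replicate 3 libraries (adjusted p = 0.477). TGFB3 (chr14:75958097-75983011, minus strand) was the least abundant member, with 56, 49 and 38 counts in PS-MP and 42, 59 and 51 counts in control libraries. These counts correspond to 3.24, 2.75 and 2.02 CPM against 2.47, 2.70 and 2.34 CPM. Its interval, 0.737 to 1.53-fold, was the widest of the 9 members (edgeR adjusted p = 0.86), and its direction turned without PS-MP replicate 1 (log2 fold change -0.07). The annotated span of TGFB3 overlaps IFT43 on the opposite strand, which had up to 693 counts in a library. As for TGFB1, reads there cannot be told apart with certainty.

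The makeup of the ligand pool was set by TGFB1. Of the sum of the 3 ligands per kilobase, TGFB1 made up 88.1%, 87.9% and 85.7% in the PS-MP libraries and 87.9%, 86.5% and 88.3% in the controls. TGFB2 held 11.6% ± 1.59 in PS-MP and 11.2% ± 0.912 in control libraries (SD, n = 3), and TGFB3 1.19% ± 0.293 and 1.20% ± 0.0558. No share differed by more than the spread between libraries (exact two-sided permutation test, p = 0.6, 0.8 and 0.9 for TGFB1, TGFB2 and TGFB3, where the smallest p for 3 against 3 is 0.1).

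TGFBR2, the type II receptor to which the ligand binds first, lies at chr3:30606601-30694142 (plus strand). It had 260.3, 251.0 and 356.4 CPM in PS-MP libraries, against 226.2, 241.7 and 272.5 CPM in the controls. Replicate 3 was the highest library of each group, and control replicate 3 lay above PS-MP replicates 1 and 2. The log2 fold change of 0.23 ± 0.14 SE did not pass (edgeR adjusted p = 0.359), and it was 0.05 without PS-MP replicate 3 (adjusted p = 0.789). SMAD7, the inhibitory SMAD that recruits ubiquitin ligases to the receptor and is itself an early target of the pathway, lies at chr18:48919853-48950965 (minus strand). Its values were 8.51, 9.64 and 8.43 CPM in PS-MP and 9.13, 8.55 and 7.28 CPM in control libraries. The groups overlapped, with a fold change of 1.07 and an interval from 0.840 to 1.35 (edgeR adjusted p = 0.768).

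Among the target genes, TGFBI and CCN2 were higher and THBS1 lower in each PS-MP library than in any control, and of these the test called TGFBI. TGFBI (chr5:136028988-136063818, plus strand) encodes a secreted protein that links collagens to integrins. It had 742.5, 743.5 and 979.2 CPM in PS-MP libraries, against 563.7, 567.0 and 635.7 CPM in the controls. Replicate 3 was the highest library in both groups. Its log2 fold change was 0.48 ± 0.13 SE (edgeR adjusted p = 0.0391, higher in 3 of 3 PS-MP libraries than in every control). The call was lost when any 1 of the 6 libraries was left out, with adjusted p from 0.054 (PS-MP replicate 2) to 0.15 (control replicate 1) and log2 fold changes from 0.34 to 0.55. With 1 library left out, 4.81% to 10.8% of all tested genes were called, beside 9.56% with all 6. The call of TGFBI was also lost with total counts as the only scaling (adjusted p = 0.0796), and held in DESeq2 (0.011) and in limma-voom (0.0418). It passed without both replicate 3 libraries too (edgeR adjusted p = 0.0017, log2 fold change 0.39), a setting that called 26.6% of all tested genes.

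CCN2 (connective tissue growth factor, chr6:131948176-131951372, minus strand) and CCN1 (CYR61, chr1:85580761-85584589, plus strand) encode matricellular proteins that bind integrins. Both genes are known targets of YAP and TEAD as well as of SMADs. CCN2 had 52.9, 54.4 and 48.5 CPM in PS-MP libraries, against 42.2, 43.2 and 35.8 CPM in the controls. Every PS-MP library lay above every control, replicate 3 was the lowest of each group, and the fold change was 1.29 with an interval from 1.08 to 1.52. It did not pass over all genes (unadjusted p = 0.00775, edgeR adjusted p = 0.0685), and it passed when PS-MP replicate 3 was left out (0.044) or both replicate 3 libraries were (0.00819). Of all tested genes 10.8% were called in the first of these settings and 26.6% in the second. CCN1 had 45.4, 44.4 and 34.1 CPM in PS-MP libraries, against 35.5, 34.6 and 32.9 CPM in the controls. PS-MP replicates 1 and 2 lay above the controls and PS-MP replicate 3 among them. Its log2 fold change was 0.27 ± 0.13 SE (edgeR adjusted p = 0.229), or 0.39 without PS-MP replicate 3 (adjusted p = 0.0316).

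THBS1, which encodes thrombospondin 1, a matrix glycoprotein that can activate latent TGF-beta, lies at chr15:39581079-39599466 (plus strand). It had 24.3, 22.0 and 18.3 CPM in PS-MP libraries, against 27.4, 26.7 and 28.2 CPM in the controls. All PS-MP values lay below all control values, and PS-MP replicate 3 was the lowest. The log2 fold change was -0.35 ± 0.13 SE, an interval of 0.647 to 0.953-fold, and it did not pass (unadjusted p = 0.0193, edgeR adjusted p = 0.119). Over 14 alternatives it stayed between -0.44 and -0.23 with adjusted p from 0.073 to 0.242. The span of THBS1 overlaps FSIP1 on the opposite strand, which had at most 29 counts in a library.

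**Figure D3:**
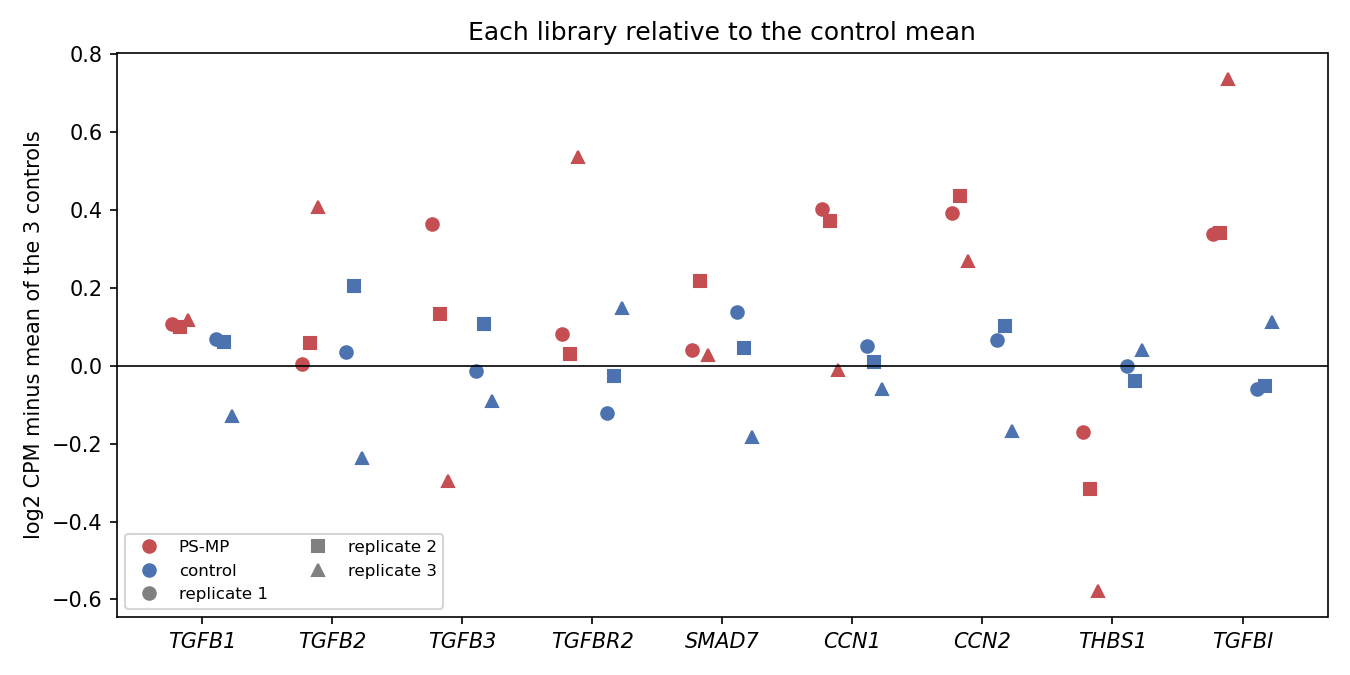
Each point is the log2 CPM of a member in a library minus the mean of the 3 controls, with PS-MP in red left of control in blue and the replicate by symbol. In TGFBI, TGFBR2 and TGFB2 PS-MP replicate 3 (triangle) was the highest library (0.74, 0.53 and 0.41), and in THBS1 and TGFB3 it was the lowest (-0.58 and -0.30).

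The sequences upstream of the 3 targets whose groups did not overlap are shown because they differ in the letters that SMAD and TEAD factors are known to prefer. They are the 250 bases before the RefSeq start (GRCh38.p14), 5′ to 3′ on the gene's strand: chr6:131951373-131951622 for CCN2 (minus strand), chr15:39580829-39581078 for THBS1 and chr5:136028738-136028987 for TGFBI (both plus strand). Capitals mark the SMAD box CAGAC and the TEAD motif GGAATG, searched on both strands.
CCN2: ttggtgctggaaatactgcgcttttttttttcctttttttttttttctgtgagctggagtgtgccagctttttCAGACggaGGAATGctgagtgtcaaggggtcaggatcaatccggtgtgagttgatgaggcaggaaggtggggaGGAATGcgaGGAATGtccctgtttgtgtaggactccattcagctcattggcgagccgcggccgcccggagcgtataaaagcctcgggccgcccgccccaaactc
THBS1: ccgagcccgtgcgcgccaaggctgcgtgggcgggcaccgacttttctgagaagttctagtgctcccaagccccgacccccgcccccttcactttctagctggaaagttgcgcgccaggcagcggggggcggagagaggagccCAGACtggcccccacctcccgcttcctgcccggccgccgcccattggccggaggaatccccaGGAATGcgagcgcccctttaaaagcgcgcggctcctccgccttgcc
TGFBI: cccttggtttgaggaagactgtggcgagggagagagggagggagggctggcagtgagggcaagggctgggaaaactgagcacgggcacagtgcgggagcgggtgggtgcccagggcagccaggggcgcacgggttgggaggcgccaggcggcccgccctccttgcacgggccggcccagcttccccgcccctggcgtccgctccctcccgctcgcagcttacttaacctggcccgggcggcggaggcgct

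The CCN2 window held 1 SMAD box (-177 to -173 from the start) and 3 TEAD motifs, at -169 to -164, -104 to -99 and -95 to -90. The THBS1 window held 1 of each, at -108 to -104 and -46 to -41. The TGFBI window held neither, and CCN2 and THBS1, with log2 fold changes of 0.36 and -0.35, held both motifs. RefSeq promoters were matched for 8 of the 9 members, all but CCN1. Over all RefSeq starts given for these 8, a SMAD box stood before TGFB2, TGFB3, SMAD7, CCN2 and THBS1 (5 of 8), and a TEAD motif before TGFB2, CCN2 and THBS1 (3 of 8). Several genes have more than 1 start, and per window the SMAD box was in 6 of 12 and the TEAD motif in 3 of 12. Of all 35116 promoter windows of the same length, 38% held a SMAD box and 11.9% a TEAD motif. The AP-1 motif TGANTCA (6.57% of windows) and the CArG box bound by SRF (1.16%) were found in 0 of the 12, and the matches printed above do not overlap each other. A match is a description of letters and not evidence of binding.

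Ratios within a library do not depend on library scaling. The log2 ratio of TGFBI to TGFB1 counts was 2.52, 2.53 and 2.91 in PS-MP and 2.16, 2.18 and 2.53 in control libraries, which overlap through control replicate 3. That of CCN2 to TGFB1 was -1.32 ± 0.10 in PS-MP and -1.58 ± 0.04 in controls (SD, n = 3), and that of THBS1 to TGFB1 -2.60 ± 0.21 and -2.13 ± 0.15, both without overlap. The log2 ratio of CCN2 to THBS1 was 1.12, 1.31 and 1.41 in PS-MP, against 0.62, 0.70 and 0.35 in control libraries, a difference of 0.72. The exact two-sided permutation p was 0.1 for the 3 ratios without overlap, the smallest that 3 against 3 allows (0.2 adjusted over the 6 ratios computed). These are not 3 separate results, because the ratio of CCN2 to THBS1 follows from those of CCN2 and THBS1 to TGFB1. Nor could the ratios of THBS1 to TGFB1 and CCN2 to THBS1 overlap, since each pairs members that lay apart in opposite directions. The p of 0.1 for those ratios was fixed by that separation and adds nothing to it. The ratios of TGFBI, CCN1 and SMAD7 to TGFB1 overlapped between groups (exact p = 0.3, 0.4 and 0.8).

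The other genes of the pathway were described in 8 lists that held 125 genes, of which 108 were tested. Of these 12 rose and 2 fell, 13.0% called beside 9.56% of all genes, and the median log2 fold change was 0.06. At an unadjusted p under 0.05 there were 23 higher and 8 lower, beside 24.0% of all tested genes in either direction. DESeq2 called 15 higher and 3 lower. The count of calls depended on the libraries. It was 7 without PS-MP replicate 1 or control replicate 1, where 4.81% and 5.58% of all tested genes were called. It was 8 without PS-MP replicate 2 or control replicate 2 (5% and 5.68% of all tested genes). Without control replicate 3 it was 14 (7.01%) and without PS-MP replicate 3 it was 18 (10.8%). Without both replicate 3 libraries it was 40 (21 higher and 19 lower). In that last setting 26.6% of all tested genes were called.

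**Figure D4:**
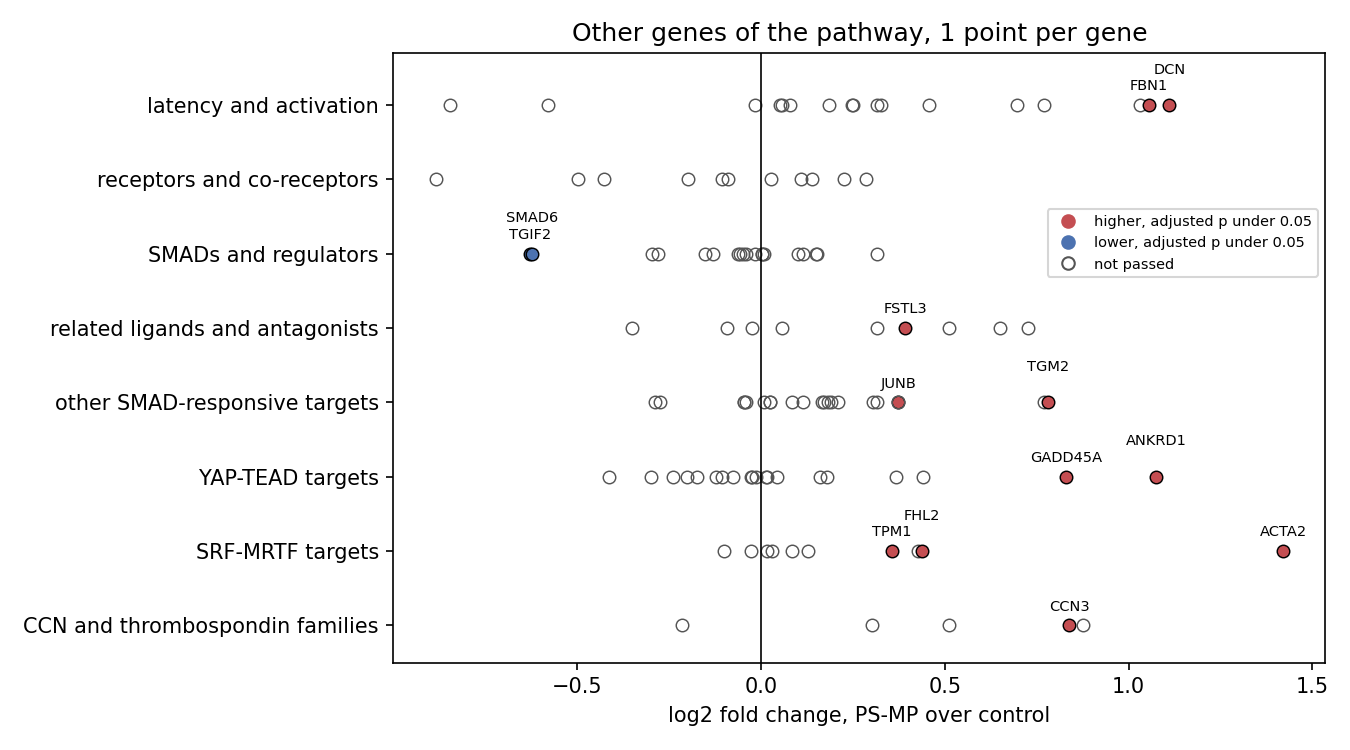
Each point is a plotted gene of a pathway list, placed by its log2 fold change (PS-MP over control), filled red or blue where edgeR's adjusted p passed and open where it did not. The named points are genes that passed, up to 1.42 for ACTA2, with SMAD6 and TGIF2 as the 2 that fell.

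Of 22 tested genes of the list of other SMAD-responsive targets, 3 rose and 0 fell by edgeR. These calls made up 13.6% of the list, beside 9.56% of all tested genes. With the unadjusted p under 0.05, 6 were higher and 0 lower, where 24.0% of all tested genes passed in either direction. DESeq2 called 4 higher and 0 lower (median log2 fold change by edgeR 0.17). TGM2, the cross-linking enzyme transglutaminase 2, had 1809, 1788 and 2495 CPM in PS-MP libraries, against 1196, 1190 and 1161 CPM in the controls. It rose 1.72-fold (edgeR adjusted p = 0.00502) and kept its call in all 14 alternatives, with PS-MP replicate 3 well above the rest. JUNB, an AP-1 subunit, rose by a log2 fold change of 0.37 (edgeR adjusted p = 0.0344), a call lost in 7 of 14 alternatives. The early pathway targets PMEPA1 (log2 fold change 0.32, adjusted p = 0.0628) and SKIL (0.01, 0.977) did not pass. Neither did the BMP-responsive ID1 (0.03, 0.91), nor ID2 (0.115, 0.667) and ID3 (0.37, 0.0648). In PMEPA1 and ID3 every PS-MP library lay above every control, and in SKIL, ID1 and ID2 the groups overlapped. All of these are named after their values were seen. CDKN2B, also named after its values were seen, had 0 counts in all 6 libraries; this gene is known to be deleted in A549.

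Among the receptors and co-receptors 0 of 11 tested genes passed by edgeR, DESeq2 or limma-voom, where edgeR called 9.56% of all tested genes. At an unadjusted p under 0.05 there were 0 higher and 2 lower (median log2 fold change -0.09). TGFBR1, the type I receptor, had 7.23 ± 0.394 CPM per kb in PS-MP and 6.18 ± 0.483 in control libraries, well under the level of TGFBR2. TGFBR3, the co-receptor betaglycan, had 20.7 ± 5.53 CPM in PS-MP and 29.3 ± 2.90 CPM in control libraries (adjusted p = 0.106). Both are named after their values were seen.

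Of the 19 tested SMADs and their regulators 2 fell and 0 rose by edgeR and by DESeq2, 10.5% called beside 9.56% of all tested genes by edgeR. At an unadjusted p under 0.05 there were 1 higher and 4 lower (median log2 fold change -0.04). SMAD6, the inhibitory SMAD that acts mainly on BMP signalling, had 27.4, 26.2 and 21.5 CPM in PS-MP libraries, against 36.5, 35.4 and 43.6 CPM in the controls. The groups did not overlap, as in 5 of the 19 tested genes of this list and 32.0% of all tested genes. The log2 fold change of SMAD6 was -0.62 (edgeR adjusted p = 0.0132), a call lost in 1 of 14 alternatives. TGIF2, a transcriptional corepressor of SMAD complexes, had 8.80, 9.75 and 10.5 CPM in PS-MP libraries, against 14.9, 14.5 and 15.5 CPM in the controls (log2 fold change -0.63, adjusted p = 0.0149). Its call was lost in 5 of 14 alternatives. SMAD3, which carries the signal to DNA, had 264.1 ± 39.2 CPM in PS-MP and 320.6 ± 6.15 CPM in control libraries, a difference that did not pass (adjusted p = 0.178). It is named after its values were seen.

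In the list of latency and activation genes 2 of 17 tested genes rose and 0 fell by edgeR, 11.8% called beside 9.56% of all tested genes. At an unadjusted p under 0.05 there were 6 higher and 2 lower, and DESeq2 called 4 higher and 1 lower (median log2 fold change 0.25). FBN1, which encodes fibrillin 1, the microfibril that anchors latent TGF-beta, had 29.7, 26.2 and 48.4 CPM in PS-MP libraries, against 18.7, 18.7 and 12.8 CPM in the controls (log2 fold change 1.06, adjusted p = 0.0151). Replicate 3 was the highest PS-MP and the lowest control library, and the call was lost in 2 of 14 alternatives, 1 of them without control replicate 3 (log2 fold change 0.89, adjusted p = 0.0682). Without both replicate 3 libraries its log2 fold change was 0.58 (adjusted p = 0.00147). DCN, which encodes decorin, a proteoglycan that binds TGF-beta, had 4.17, 3.64 and 6.95 CPM in PS-MP libraries, against 2.41, 2.24 and 2.20 CPM in the controls (log2 fold change 1.11, adjusted p = 0.0245). Its call was lost in 5 of 14 alternatives. DCN is also on the list of 7 fibroblast markers, which with DCN included summed to 8.28 to 12.1 CPM in PS-MP and 5.22 to 6.99 CPM in control libraries. COL1A2 of that list was at 0 in all 6 libraries, and the part of these markers in the result was not tested.

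Of the related ligands and antagonists 1 of 9 tested genes rose and 0 fell by edgeR and by DESeq2, 11.1% called beside 9.56% of all tested genes by edgeR. At an unadjusted p under 0.05 there were 3 higher and 0 lower (median log2 fold change 0.32). The gene called was FSTL3, which encodes an activin-binding follistatin-like protein (110.8 ± 10.6 CPM in PS-MP, 84.4 ± 6.82 CPM in control libraries, SD, n = 3, edgeR adjusted p = 0.0455), a call lost in 7 of 14 alternatives.

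CCN1 and CCN2 are also read as targets of YAP and TEAD. Of the 20 tested genes of the list of such targets 2 rose and 0 fell by edgeR and by DESeq2. By edgeR 10.0% were called, beside 9.56% of all tested genes. At an unadjusted p under 0.05 there were 3 higher and 0 lower (median log2 fold change -0.02). ANKRD1, a cardiac ankyrin repeat protein often used as a YAP reporter, had 18.0, 16.7 and 16.1 CPM in PS-MP libraries, against 6.42, 7.86 and 9.71 CPM in the controls. It rose 2.11-fold (edgeR adjusted p = 0.00231). GADD45A, a stress sensor that is also a known p53 target, rose by a log2 fold change of 0.83 (adjusted p = 0.00146), and both calls held in all 14 alternatives. AMOTL2 (log2 fold change -0.01), LATS2 (-0.08) and AJUBA (0.44, edgeR adjusted p = 0.117), named after their values were seen, did not pass.

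Of 10 tested SRF and MRTF targets 3 rose and 0 fell by edgeR, 30% called beside 9.56% of all tested genes. At an unadjusted p under 0.05 there were 4 higher and 0 lower, as there were by DESeq2, with a median log2 fold change of 0.11. ACTA2, the smooth muscle actin that marks myofibroblasts and is also a known p53-responsive gene, had 15.4, 16.9 and 21.3 CPM in PS-MP libraries, against 7.60, 7.91 and 4.58 CPM in the controls. It rose 2.68-fold (edgeR adjusted p = 0.00201) and kept its call in all 14 alternatives. Overlap with the spans of other genes was looked up for the members only, so it was not checked for ACTA2. The other risers were FHL2, a LIM-domain cofactor, and TPM1, a tropomyosin (log2 fold changes 0.44 and 0.36, adjusted p = 0.0263 and 0.03), which lost their calls in 6 and 7 of 14 alternatives. The cytoplasmic actins ACTB (log2 fold change -0.10) and ACTG1 (0.02), named after their values were seen, did not pass. TPM2, named in the same way, was higher in every PS-MP library than in any control and did not pass either (0.43, edgeR adjusted p = 0.0584).

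In the families of CCN and thrombospondin genes 5 of 8 were tested, and 1 rose and 0 fell by edgeR and by DESeq2. By edgeR 20% were called, beside 9.56% of all tested genes. At an unadjusted p under 0.05 there were 2 higher and 0 lower (median log2 fold change 0.51). CCN3 had 8.57, 8.18 and 6.31 CPM in PS-MP libraries, against 4.42, 4.98 and 3.48 CPM in the controls (log2 fold change 0.84, edgeR adjusted p = 0.0246). Its call was lost in 4 of 14 alternatives, all of them with 1 library left out. THBS2, a paralog of THBS1 named after its values were seen, had at most 2 counts in a library.

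Genes whose pattern was most like that of TGFBI over the 6 libraries were MBOAT7, a phospholipid acyltransferase (Pearson r = 0.997), and C3, the central complement component (r = 0.994), among 11139 genes whose mean log2 CPM reached 2. MBOAT7 had a log2 fold change of 0.43 (edgeR adjusted p = 0.0586) and C3 of 0.82 (0.0252). With 6 libraries in 2 groups many genes look alike, and 103 of them had an r over 0.95.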

How the data were processed

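Gene counts came from 6 stranded, poly(A)-selected libraries of A549 cells. The deposited values are whole-number counts per Ensembl gene, 1 column per library. The submitters' processing notes name the build GRCh38 and, without version or role, DESeq2, RSEM, StringTie, HISAT2 and fastp, and the deposited table is named for featureCounts. Strand setting, multi-mapping and annotation release are not given in the sources used here.

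The test was run in edgeR 4.0.16 under R 4.3.3: filterByExpr on the group (15458 genes), TMM scaling and the robust quasi-likelihood F test of PS-MP over control on all tested genes, adjusted by Benjamini-Hochberg. Adjusted p-values come from this edgeR fit unless another tool is named. CPM use TMM-effective library sizes, with totals of 17013293 to 21316451 counts. SE are derived from the fold change and F, and 95% intervals use the fit's degrees of freedom. Lengths are GENCODE 29 exon unions, so levels per kilobase are approximate. Promoters are from RefSeq (GRCh38.p14).

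Members and lists were chosen with earlier results of these data known. Named genes are the members, up to 5 called genes per list and the 2 genes most correlated with each called member. Other genes named in the text were chosen after their values were seen. Alternatives were DESeq2 1.42.0, limma-voom (limma 3.58.1), scaling by RLE or by totals, a filter at a mean of 10 counts or none, a block on replicate number, omission of each library in turn, and, chosen after seeing the data, both replicate 3 libraries left out. The procedure was run on simulated data with the same spread for all genes and no deviating replicate. The changes planted there were larger than those of any member, so the run does not cover changes as small as these. A gene of the pathway lists is counted in them but not reported by name or plotted here.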

Additional observations from a re-analysis of the deposited data

How the results depend on the processing

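Of 126 refits of the members (9 members, 14 alternatives each), 112 kept the direction and the side of the threshold, 8 lost a call, 4 gained a call and 2 turned direction. The 8 losses were those of TGFBI (log2 fold change 0.42 with total-count scaling, 0.47 with the replicate block, and 0.34 to 0.55 with 1 library left out). The gains were those of CCN1 and CCN2, when PS-MP replicate 3 was left out or both replicate 3 libraries were (0.36 for CCN1 and 0.33 for CCN2 in the last setting). With 1 library left out CCN1 ranged from 0.19 to 0.39 and CCN2 from 0.28 to 0.41. TGFB2 turned to -0.10 without both replicate 3 libraries, and TGFB3 ranged from -0.072 (without PS-MP replicate 1) to 0.258 with 1 library left out. The number of members called, 1, was 0 with total-count scaling and with the replicate block, and 0 to 2 with 1 library left out. It was 3 without both replicate 3 libraries, where 26.6% of all tested genes were called. Calls in the pathway lists, 14, became 6 with the replicate block (FBN1 among those lost, adjusted p = 0.0758), 7 to 18 with 1 library left out and 40 without both replicate 3 libraries. Calls over all genes, 1478, became 750 with the replicate block, 771 to 1696 with 1 library left out and 4129 without both replicate 3 libraries. With total-count scaling 535 genes were higher and 861 lower, where TMM gave 759 and 719, and the median log2 fold change of all genes moved to -0.06. The values showed no sign that replicate numbers pair the libraries: deviations of same-numbered libraries from their group means correlated at -0.09, -0.11 and -0.18. PS-MP replicate 3 correlated best with control replicate 1 (0.13). With so few libraries these correlations cannot decide whether same-numbered libraries were handled together. TGFB3 had 38 to 59 counts per library, the fewest of the members. The cause of these shifts was not tested.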
